A study of Triticum aestivum with 8 samples.

Results

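Accessible chromatin regions (ACRs) of wheat grain at 9 and at 15 days were compared locus by locus, to describe which open regions of the earlier sample were absent from the later one, which were present only later, and how the regions common to both changed in width. The material was bread wheat, Triticum aestivum, of the cultivar AK58 (AiKang58), grown in a greenhouse after vernalization. The earlier sample (DAP9) was endosperm from which the embryo had been removed, 9 days after fertilization by the study's methods. These methods do not mention the removal of other grain parts, and the paper's results spell out DAP as days after pollination. The later sample (DAP15) was whole seed at 15 days, embryo included. Stage and tissue changed together and cannot be told apart. The 2 lists were 2 of 4 in the series and held 207198 of its 420451 ACRs. Merging ACRs of both lists that overlapped by at least 1 bp gave 137166 loci.

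The endosperm feeds the embryo and stores most of the starch and the gluten proteins of the grain. After fertilization it first divides as a syncytium, then becomes cellular, and then fills with starch and storage proteins, while the embryo forms its own organs alongside it. Open chromatin marks DNA that is not packed in nucleosomes, where transcription factors can bind, and in large cereal genomes it makes up a small part of the sequence. In ATAC-seq, the Tn5 transposase cuts such DNA and adds sequencing adapters to it. Bread wheat carries 3 subgenomes, A, B and D, each with 7 chromosomes, so that 1A, 1B and 1D form a homoeologous group.

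A locus found in the DAP9 list alone is called lost, one found in the DAP15 list alone gained, and one found in both kept. These words name membership in the lists. They do not say that chromatin closed or opened, since the lists gave no signal and a region can cross a calling limit with a small change. With 1 list per stage, replicate error is unknown and no test between the stages was possible. Each share is followed by its Wilson 95% interval, which reflects counting error alone. It treats loci as independent, whereas neighbouring loci depend on each other, so the intervals are likely too narrow. Also given is on how many of the 21 chromosomes a direction was seen. Chromosomes share the same samples and are not replicates.

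The lists held nearly the same number of loci and exchanged them in nearly equal numbers. Of all 137166 loci, 36182 were lost (26.4%), 36742 were gained (26.8%) and 64242 were kept (46.8%). Seen from each list, 36.0% of the 100424 DAP9 loci were lost (35.7 to 36.3%) and 36.4% of the 100984 DAP15 loci were gained (36.1 to 36.7%). Without chromosome 4B, which is described separately below, the share lost was 35.2% (34.9 to 35.5%) and the share gained 36.1% (35.8 to 36.4%). The near balance held for loci of every width together. With ACRs of at least 500 bp alone, the share lost was 43.2% and the share gained 33.1%, and the DAP15 list held fewer such ACRs. The DAP9 list covered 79.9 Mb with a mean ACR of 786 bp, and the DAP15 list covered 70.3 Mb with a mean of 666 bp. ACRs of exactly 350 bp, the narrowest common width, were 26.2% of the DAP9 list and 38.6% of the DAP15 list.

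Lost and gained loci were narrow, and kept loci were wide. Lost loci had a mean width of 570 bp and a median of 500 bp. Gained loci were narrower still, with a mean of 476 bp and a median of 350 bp, and 58.1% of them measured exactly 350 bp against 40.2% of the lost loci. Kept loci spanned 1073 bp on average. A locus merged from both lists is wider than its parts, so the fairer comparison is between ACRs of the same list. DAP9 ACRs in lost loci averaged 570 bp against 906 bp for DAP9 ACRs in kept loci, and DAP15 ACRs in gained loci averaged 476 bp against 768 bp in kept loci. On 21 of 21 chromosomes, the mean width of DAP9 ACRs was lower in lost than in kept loci, that of DAP15 ACRs was lower in gained than in kept loci, and gained ACRs were narrower than lost ACRs.

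The share lost was lower in each wider class of ACRs. Of DAP9 ACRs of 350 bp or less, 54.6% were lost (54.1 to 55.2%), against 28.4% of those of 651 to 800 bp (27.6 to 29.3%) and 3.89% of those over 2000 bp (3.31 to 4.56%). The share gained among DAP15 ACRs went from 52.4% (51.9 to 52.8%) in the narrowest class through 20.5% (19.7 to 21.4%) at 651 to 800 bp to 2.43% (1.87 to 3.16%) in the widest. In each of these 3 classes, the share lost lay above the share gained. A wide ACR also offers more bases for an overlap of 1 bp. How far this sets the trend was not tested.

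**Figure D1:**
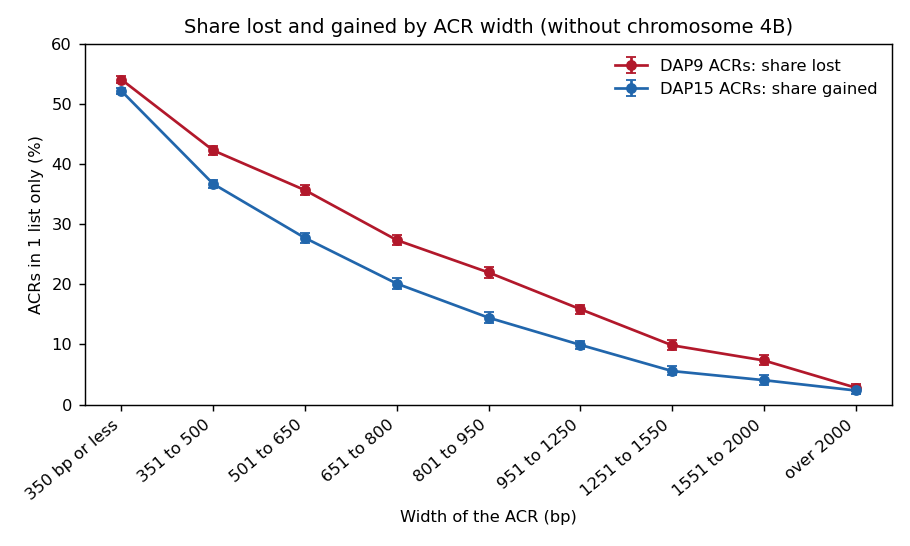
Share of ACRs found in 1 list only (vertical axis, percent) against the width of the ACR in 9 classes (horizontal axis, bp), for DAP9 ACRs (lost, red) and DAP15 ACRs (gained, blue), without chromosome 4B. Bars are Wilson 95% intervals; the share lost goes from 54.1% at 350 bp or less to 2.81% over 2000 bp, and the share gained from 52.2% to 2.34%.

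A few wide regions were nevertheless present in 1 list alone. The widest lost locus was a single DAP9 ACR of 5750 bp on 4B (610560926 to 610566675), and the widest lost locus elsewhere was an ACR of 4850 bp near the start of 2D (32406 to 37255). The widest gained loci were DAP15 ACRs of 5750 bp on 3B (154195005 to 154200754) and 5450 bp on 1B (672954797 to 672960246). Coordinates are 1-based and follow the deposited lists, whose genome build was not given in the sources used here, so that these regions could not be matched to genes.

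Kept loci mostly paired 1 ACR with 1 ACR, and where they did not, the DAP15 list held the more divided form. Of the 64242 kept loci, 59197 (92.1%) held 1 ACR of each list. In 3897 loci (6.07%, 5.88 to 6.25%) a single DAP9 ACR was met by several DAP15 ACRs, and in 903 loci (1.41%) several DAP9 ACRs were met by a single DAP15 ACR. The divided form was thus 4.32 times as frequent as the joined one, and the ratio exceeded 3 on each chromosome, from 3.18 on 2B to 6.5 on 5D. The gaps between the pieces of a divided ACR had a median of 276 bp. In these loci the mean covered length was 2054 bp at DAP9 and 1538 bp at DAP15. The most divided case lay on 7A (404466845 to 404476340), where 1 DAP9 ACR of 9050 bp stood against 6 DAP15 ACRs that covered 8117 bp. The widest kept locus went the other way. On 1D (581619 to 595136, 13518 bp) there were 3 ACRs in each list, covering 8700 bp at DAP9 and 12892 bp at DAP15.

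The kept regions were on balance narrower in the seed. Among the 59197 loci with 1 ACR in each list, the mean width was 828 bp at DAP9 and 748 bp at DAP15, a mean difference of -79.8 bp, while the median difference was 0. The ACR was narrower at DAP15 in 45.2% of these loci (44.8 to 45.6%), equal in 25.5% (25.2 to 25.9%) and wider in 29.3% (29.0 to 29.7%). Narrower ACRs outnumbered wider ones on 21 of 21 chromosomes, with the share narrower running from 41.9% on 7A to 48.6% on 1A. A width change of at least 1.5-fold was seen towards narrower in 12255 loci (20.7%) and towards wider in 6246 loci (10.6%). Width was at most 0.5 times its DAP9 value in 10.04% of the loci and at least doubled in 3.86%.

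**Figure D2:**
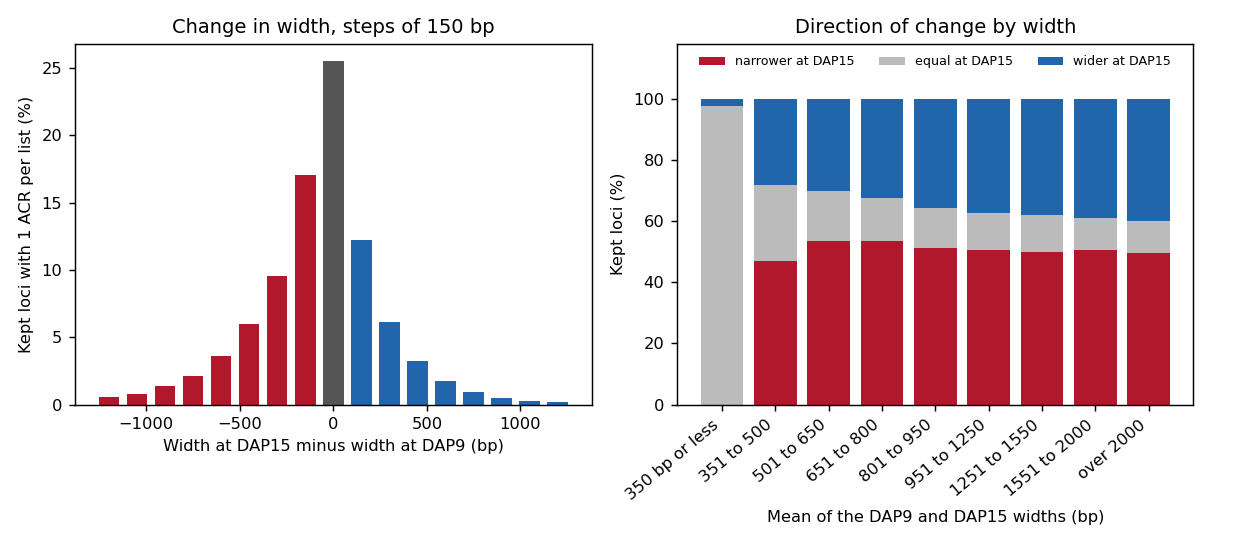
Width change of the 59197 kept loci with 1 ACR per list. Left, percent of loci (vertical) by DAP15 minus DAP9 width in steps of 150 bp (horizontal, changes that are no multiple of 150 bp and changes beyond 1200 bp not drawn), with narrower in red, equal in grey and wider in blue; 25.5% had equal widths. Right, percent narrower, equal and wider at DAP15 by the mean of both widths (bp), with 53.5% narrower at 501 to 650 bp and 49.5% over 2000 bp.

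The excess of narrowing was present in all classes of width above 350 bp. Sorted by the mean of both widths, which favours neither list, 53.7% of the loci of 651 to 800 bp were narrower at DAP15 (52.6 to 54.7%) and 32.5% were wider (31.5 to 33.5%). Over 2000 bp, 49.5% were narrower (46.9 to 52.1%) and 39.8% were wider (37.3 to 42.4%). In the class of 350 bp or less, almost no narrowing is possible, and 97.8% of the loci were equal. Narrowing was larger at the chromosome ends, here the outer 20% at either end, where the mean difference was -90.4 bp, than between them, where it was -64.2 bp. By subgenome, the mean difference was -83.1 bp in A, -65.9 bp in B and -89.4 bp in D.

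The most narrowed locus lay on 4B, as did one of the 2 that followed. The first went from 5450 bp to 350 bp (660594579 to 660600028), the other from 5150 bp to 500 bp (671629853 to 671635002). An ACR on 7D (34531909 to 34537208) narrowed by the same amount as the second of these, from 5300 bp to 650 bp. The most widened locus was on 3B (701414864 to 701419993), with 1400 bp at DAP9 and 5000 bp at DAP15, and the next was near the start of 1D (338026 to 341975), with 650 bp and 3950 bp.

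Paired ACRs were also displaced towards lower coordinates at DAP15. The distance between their midpoints had a median of 91 bp without regard to direction. With direction, the DAP15 midpoint lay nearer the chromosome start by a mean of -18.5 bp, and it did so in 56.5% of the loci (56.1 to 56.9%). The mean was negative on 21 of 21 chromosomes, between -24.0 and -10.1 bp. It was of similar size whether the ACR was narrower (-18.0 bp), equal (-18.2 bp) or wider (-19.6 bp), and it was -19.3 bp for the 6374 pairs in which both ACRs measured 350 bp. The displacement was small beside the step of 150 bp by which most widths changed.

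Loss was unevenly placed along the chromosomes, and gain less so. Of the kept loci, 59.9% lay in the outer 20% at the 2 ends, which make up 40% of the length (59.5 to 60.3%), as did 59.6% of the lost loci (59.1 to 60.1%) and 58.2% of the gained loci (57.7 to 58.7%). Gained loci were less often at the ends than kept loci on 17 of 21 chromosomes, while the intervals of lost and kept loci overlapped. In the outermost 5% at either end, taken after the data were seen, gained and kept loci both had 21.9% and lost loci had 21.03% (20.6 to 21.5%). Both ends were not alike. Without 4B, the share lost was 37.4% in the end at the chromosome start (36.8 to 38.1%) and 33.8% in the far end (33.3 to 34.3%). The share gained was 36.9% in the former and 34.5% in the latter, with intervals that did not overlap. Chromosome start refers to the numbering in the lists.

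**Figure D3:**
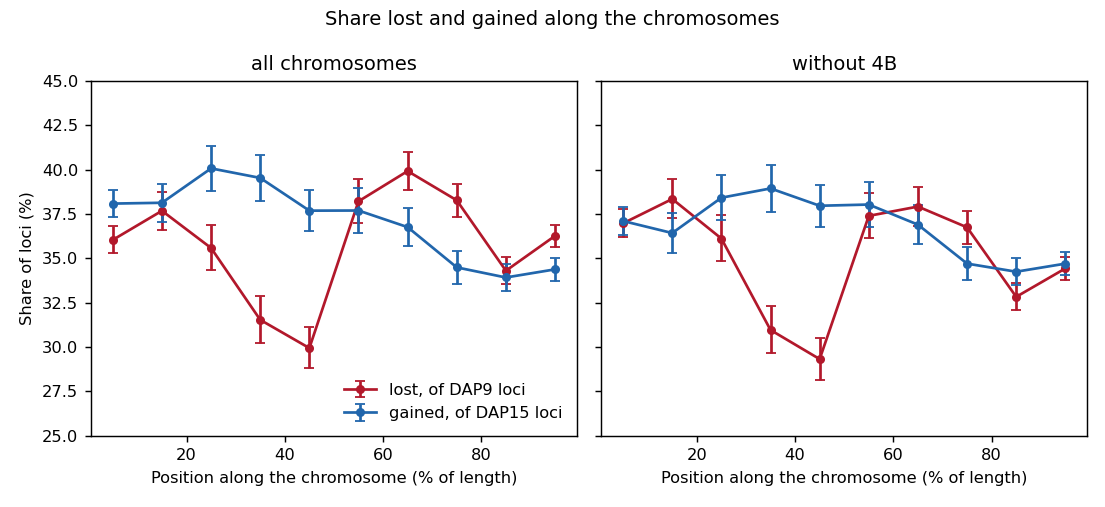
Share of DAP9 loci lost (red) and of DAP15 loci gained (blue), in percent on the vertical axis, by position along the chromosome in bins of 10% of its length on the horizontal axis. Left, all chromosomes; right, without 4B. Bars are Wilson 95% intervals. Without 4B the share lost is 31.0% and 29.3% in the bins from 30 to 50% of the length and 32.8 to 38.4% in the other bins.

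Inside the chromosomes, the share lost dipped before the midpoint. Without 4B it was 31.0% (29.7 to 32.3%) between 30 and 40% of the length and 29.3% (28.2 to 30.5%) between 40 and 50%, with 36.1% (34.8 to 37.4%) in the 10% before and 37.4% (36.1 to 38.7%) in the 10% after. Over the stretch from 30 to 50%, which was chosen after its values were seen, the share lost was 30.1% (29.2 to 30.9%) against 35.8% elsewhere (35.5 to 36.1%), and the share gained was 38.4% (37.5 to 39.3%) against 35.8% elsewhere (35.5 to 36.1%). Loss was lower there than elsewhere on 17 of the 20 chromosomes other than 4B, and gain was higher on 15 of 20. The bin of 10% with the lowest share lost began at 30 or 40% of the length on 17 of 20 chromosomes. Many wheat centromeres lie somewhat before the middle of the numbered chromosome, but no centromere position was used here.

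The dip differed among subgenomes and was present at most widths. In A, 26.8% of the DAP9 loci were lost in this stretch (25.4 to 28.3%) against 36.4% elsewhere (35.8 to 36.9%). In D the shares were 31.2% (29.7 to 32.8%) and 36.4% (35.9 to 37.0%), and in B without 4B 32.2% (30.7 to 33.8%) and 34.3% (33.7 to 34.9%). Among DAP9 ACRs of 651 to 800 bp, outside 4B, the share lost was 19.8% in the stretch (17.6 to 22.1%) and 28.3% elsewhere (27.4 to 29.3%). For ACRs of 350 bp or less it was 51.6% (49.7 to 53.5%) against 54.4% (53.7 to 55.0%). Only over 2000 bp, with 8 lost ACRs in the stretch, was the share not lower there, at 3.25% (1.66 to 6.28%) against 2.78% (2.27 to 3.40%). Kept loci narrowed least in the same bins, by -36.4 and -46.3 bp on average, compared with -102.5 bp in the last 10% of the length.

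Windows of 20 Mb varied more than whole bins of position. They also held far fewer loci, so that counting error adds to their spread. How much of the spread it makes up was not tested. Over the 654 windows outside 4B that held at least 50 loci, the share lost had a median of 35.4% and ran from 6.38% to 57.1%, and the share gained had a median of 36.7% and ran from 20.4% to 63.7%. The lowest loss was on 6A between 280 and 300 Mb, where 3 loci were lost, 44 kept and 43 gained (6.38% lost, 2.19 to 17.2%). The highest loss was on 6B between 220 and 240 Mb, with 36 lost and 27 kept (57.1%, 44.9 to 68.6%). That window was centred at 31.9% of the length, so that single windows inside the dip also reached high loss. The lowest gain was on 1A between 180 and 200 Mb, with 10 gained and 39 kept (20.4%, 11.5 to 33.6%). The highest gain was on 1D between 160 and 180 Mb, where 93 loci were gained, 53 kept and 14 lost (63.7%, 55.6 to 71.1%).

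Among the chromosomes other than 4B, the spread was narrow. The share lost ran from 32.8% on 6B (31.5 to 34.2%) to 37.9% on 2D (36.7 to 39.2%). The share gained ran from 33.7% on 1A (32.3 to 35.2%) to 39.9% on 7B (38.5 to 41.3%). The number of DAP15 ACRs per DAP9 ACR was lowest on 2D (0.982) and highest on 7B (1.12).

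**Figure D4:**
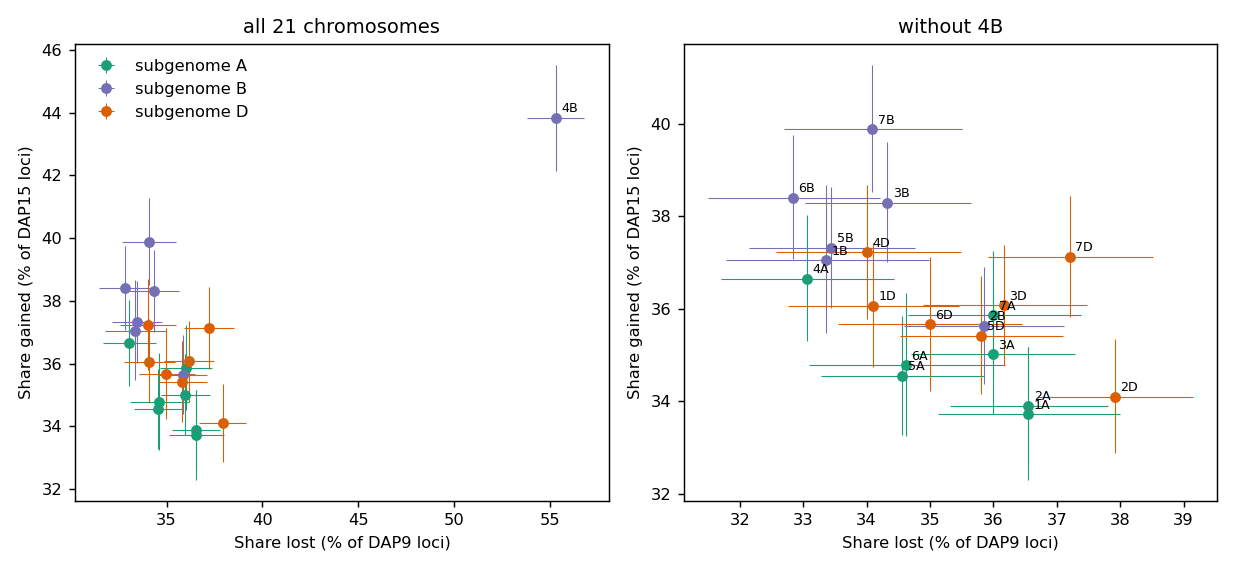
Share of DAP9 loci lost (horizontal, percent) against share of DAP15 loci gained (vertical, percent) for each chromosome, coloured by subgenome, with Wilson 95% intervals as lines. Left, all 21 chromosomes, with 4B at 55.3% lost and 43.8% gained; right, the other 20, where the B chromosomes lie towards low loss and high gain. The axes do not start at 0.

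The B subgenome combined lower loss with higher gain. Without 4B, 34.1% of its DAP9 loci were lost (33.5 to 34.6%) and 37.8% of its DAP15 loci were gained (37.2 to 38.3%), so that gained loci exceeded lost loci by 1646. In D, lost and gained loci were equal in number, at 12543 each, and both shares were 35.9%. In A, 35.4% were lost and 34.9% gained, a balance of -235 loci. Paired by homoeologous group, the share gained was higher in B than in A in 7 of 7 groups, by 3.71 ± 1.69 percentage points (SD, n = 7 groups), and higher in B than in D in 7 of 7 groups, by 2.68 ± 1.84 points. Without group 4, which holds 4B, these differences were 3.13 and 2.03 points. The share gained was lower in A than in D in 7 of 7 groups, by -1.03 ± 0.676 points. The share lost was lower in B than in A and than in D in 6 of 7 groups, with group 4 the exception, and without that group the differences were -1.73 and -2.05 points. All groups come from the same pair of lists, so these counts describe chromosomes and are no test over plants.

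Chromosome 4B stood far from the other 20. It held 2307 lost, 1456 gained and 1866 kept loci, so that 55.3% of its DAP9 loci were lost (53.8 to 56.8%) and 43.8% of its DAP15 loci were gained (42.1 to 45.5%). The number of ACRs at DAP15 was 0.819 times that at DAP9. Of its 34 windows of 20 Mb, 19 had a higher share lost than any window of the other chromosomes with at least 50 loci. The share gained was below the lowest of those windows in 17 of the 34, and above the highest in 1. The floor of 50 loci was not applied to 4B, whose window from 260 to 280 Mb held 38 loci. Windows below the floor on other chromosomes were left out.

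**Figure D5:**
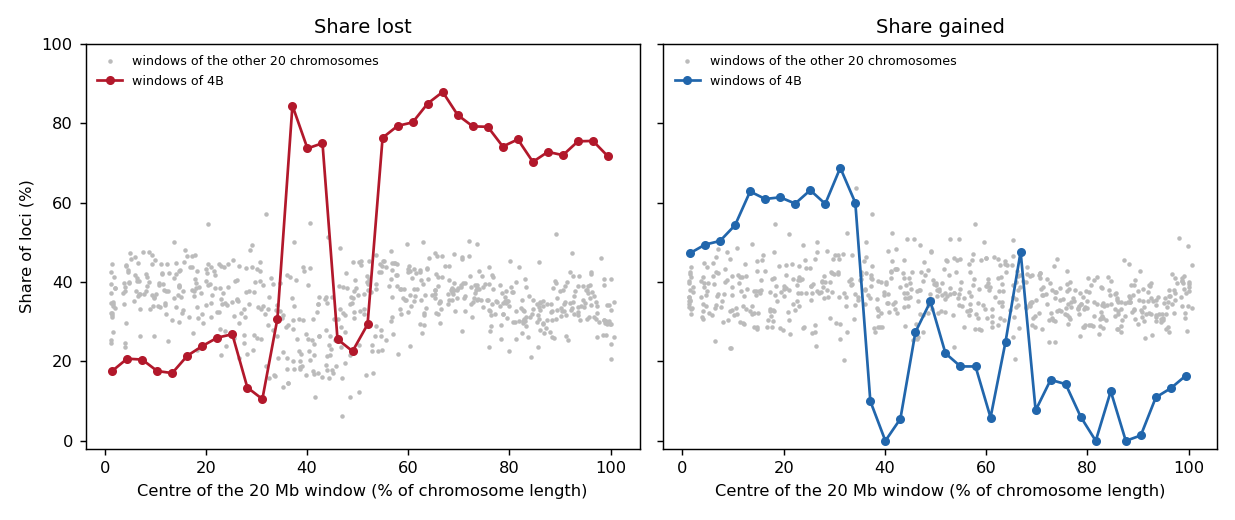
Share of DAP9 loci lost (left) and of DAP15 loci gained (right) in windows of 20 Mb, in percent on the vertical axis, by the position of the window centre in percent of chromosome length. Coloured points joined by a line are the 34 windows of 4B, grey points the windows of the other 20 chromosomes with at least 50 loci. On 4B, windows of low loss and high gain turn to high loss and low gain, with a break near the middle. For loss, 19 windows of 4B lie above the highest grey point (57.1%).

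Loss and gain on 4B changed in blocks, whose borders were set after the values were seen. From 0 to 240 Mb, 19.7% of the DAP9 loci were lost (17.7 to 22.0%) and 54.9% of the DAP15 loci were gained (52.9 to 56.8%). From 240 to 300 Mb, 78.0% were lost (71.1 to 83.7%) and 2 loci were gained (5.26%, 1.46 to 17.3%). From 300 to 360 Mb, both shares came closer to those of the other chromosomes, at 26.0% lost (20.7 to 32.2%) and 28.3% gained (22.8 to 34.5%). From 360 to 680 Mb, 76.0% were lost (74.2 to 77.6%) and 11.5% gained (9.26 to 14.1%).

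Kept loci on 4B changed in width in the same blocks. Between 0 and 240 Mb, kept pairs went from a mean of 776 bp to 951 bp, and 55.5% of them were wider at DAP15, whereas on the other chromosomes together 29.1% were wider. Between 360 and 680 Mb, they went from 1100 bp to 532 bp, and 82.7% were narrower (79.3 to 85.7%). Even wide DAP9 ACRs were often absent from this chromosome at DAP15, with 26.0% of those over 2000 bp lost (20.0 to 33.1%) against 2.81% on the other chromosomes (2.31 to 3.41%). Number, membership and width thus moved in the same direction within each of these 2 large blocks. Plants, libraries and processing cannot be told apart from stage and tissue here, and their part in the pattern was not tested.

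The first 240 Mb of 1B were almost empty in both lists. They held 6 kept, 5 lost and 3 gained loci, while the rest of the chromosome held 2197 kept, 1098 lost and 1294 gained. The longest stretches without a kept locus in the genome were here, with 84.3 Mb between 117711423 and 202005068, where 1 locus was lost and 1 gained, and 76.6 Mb between 15752645 and 92306917, which held no locus. The lost locus farthest from a kept one was an ACR of 650 bp in the first of these (146202754 to 146203403), 28491 kb away, and the gained locus farthest from a kept one was its neighbour of 350 bp (145716632 to 145716981), 28005 kb away. The longest such stretch off 1B was 13.9 Mb on 6B. The emptiness was common to both lists, so that it bears little on the shares lost and gained, and 1B outside it lay at 33.3% lost and 37.1% gained.

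Lost loci lay farther from kept loci than gained loci did. The median distance to the nearest kept locus was 15416 bp for lost loci (14019 bp without 4B), 9275 bp for gained loci and 8168 bp for kept loci. Lost loci were farther from kept loci than gained loci on 20 of the 20 chromosomes other than 4B. Within 1 kb of a kept locus lay 13.0% of the lost loci (12.6 to 13.3%), 16.8% of the gained loci (16.4 to 17.1%) and 15.6% of the kept loci (15.3 to 15.8%). Lost and gained loci were far from each other, with a median of 69884 bp from a lost locus to the nearest gained one, against 25982 bp to the nearest other lost one. Without 4B, these medians were 60735 bp and 28463 bp.

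Loci of the same kind followed each other. Outside 4B, the next locus along the chromosome after a lost one was lost in 32.5% of cases, compared with 25.8% of all loci, and the next after a gained one was gained in 30.3%, compared with 26.8% of all loci. A lost locus was followed by a gained one in 22.9% of cases. Each of these 3 departures had the same direction on 20 of 20 chromosomes. Regional shares such as the dip before the midpoint enter these values, and how much of them remains at short range was not tested.

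Some runs of one kind were long. Outside 4B, the longest run of gained loci counted 19 loci on 3B (346693165 to 347418438), over 725 kb and with a mean width of 571 bp. The next held 13 gained loci within only 26.6 kb on 5B (691426872 to 691453425). The longest run of lost loci outside 4B counted 11 loci on 5A (697555061 to 697692923), over 138 kb. The longest run of kept loci counted 20 on 3A (714725096 to 715351500), with a mean locus width of 1786 bp. On 4B, 26 lost loci followed each other between 558030805 and 560024638, and 13 gained loci between 203796924 and 205075957. Runs of 5 or more held 5.61% of the lost loci outside 4B and 53.9% of those on 4B. Lost loci made up 25.8% of all loci outside 4B and 41.0% of those on it. A higher frequency by itself lengthens runs, and how far it did so here was not tested.

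Width changes at kept loci went with the kind of the neighbouring loci. Without 4B, 9.17% of the kept loci that were narrower at DAP15 had a lost locus within 1 kb, compared with 5.57% of those of equal width and 5.56% of those that were wider. In the opposite direction, 11.0% of the wider loci had a gained locus within 1 kb, compared with 8.73% of the equal and 8.94% of the narrower ones. The median distance to the nearest lost locus was 38812 bp for narrower and 72052 bp for wider kept loci. With 4B included, narrower loci were near a lost locus more often than wider loci on 21 of 21 chromosomes, and wider loci near a gained locus more often than narrower ones on 20 of 21. Both measures come from the same pair of lists. The groups also differed in spacing. Without 4B, the median distance to the nearest locus of any kind was 2656 bp for narrower, 3813 bp for equal and 2964 bp for wider loci. Neither spacing nor ACR width was held equal between them.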

How the data were processed

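ATAC-seq of AK58 grain was described by 8 sample records, 2 per stage, and by 1 list of ACRs per stage, attached to the first replicate. Whether replicates were pooled, the genome build and the depth were not given in the sources used here. Reads were trimmed by the authors (fastp in the paper's methods, Trimmomatic 0.36 in the submitters' processing notes). They then aligned them with Bowtie2, removed duplicates with Picard, called peaks with MACS2, split them into bins, kept bins by Tn5 insertion density, merged these with bedtools and removed blacklisted and organelle-like peaks. Bin size and density limit therefore shape each width, and most widths were 350 bp plus a multiple of 150 bp. The deposited values were start and end coordinates in base pairs, with no score, signal or read number.

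ACRs of both lists were merged into loci on an overlap of at least 1 bp. Distances run edge to edge. The largest end coordinate of a chromosome stood in for its length. No statistical test across lists was possible with 1 list per stage. The members, measures and named regions were chosen with earlier results of these data known. Regions were named by rule: the widest locus of each kind, the 1-to-1 kept loci with the largest change, the longest runs, the loci farthest from a kept one, and the extreme chromosomes and 20 Mb windows with at least 50 loci. The stretch from 30 to 50%, the blocks of 4B, the start of 1B and the most divided locus were chosen after their values were seen.

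RefSeq gene positions were compared with the DAP9 ACRs. Of the gene ends, 1.95% had a DAP9 ACR within 1 kb, and 1.85 to 1.90% did after a shift of the positions, so that annotation was not used here, and distances to genes, promoters and sequences were not analysed. The scripts used numpy 2.4.6 and pandas 2.3.3 under Python 3.11.15, with intervals from scipy 1.17.1 and figures from matplotlib 3.10.9. Merging and classing were tested on simulated data with 12000 known sites. These sites lay far apart and each simulated kept pair overlapped, so that crowded neighbouring loci were not covered by the simulation. Alternatives were leaving out 4B, a minimum width of 500 bp, a reciprocal overlap of 50%, merging within 500 bp, 350 bp around each midpoint, counting ACRs in place of loci, ends of 10 or 30% (and of 5%, added later), and, for the share narrower, all kept loci by covered length.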

Additional observations from a re-analysis of the deposited data

How the results depend on the processing

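No paired analysis was possible because each stage came as 1 list, and no replicate was left out for the same reason. The planned comparison of gene neighbourhoods was not run. Of 50 recalculations, 8 stayed inside the interval of the value reported and 42 did not. The intervals are narrow, and some settings by themselves lower or raise a share. The cause of these changes was not tested.

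The share of loci kept was 47.4% without 4B, 44.3% with ACRs of at least 500 bp, 31.1% with a reciprocal overlap of 50%, 50.3% with ACRs within 500 bp merged, 38.6% with 350 bp around each midpoint and 64.8% when ACRs were counted. In the same order, the share lost was 35.2, 43.2, 51.6, 33.4, 43.2 and 35.6%, and the share gained 36.1, 33.1, 53.4, 32.8, 45.3 and 34.8%. Lost thus exceeded gained with at least 500 bp, with merging within 500 bp and when ACRs were counted, and gained exceeded lost in the other 3. The end shares of lost, gained and kept loci were 37.5, 36.5 and 37.2% for the outer 10% and 76.2, 74.0 and 75.6% for the outer 30%, and gained loci had the lowest share in these 2 settings, without 4B and with at least 500 bp. For the outer 5%, added after the data were seen, the order changed, with 21.03, 21.9 and 21.9%. With at least 500 bp, the end share of kept loci was 60.6%. The share narrower was 46.3% with at least 500 bp, 41.2% with reciprocal overlap, 44.6% with merging within 500 bp and 47.1% over all kept loci by covered length.

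With at least 500 bp, subgenomes A, B (4B included) and D lost 42.6, 43.9 and 43.1% of their loci, with B below A and below D in 6 of 7 groups, and the share gained was 31.8, 35.9 and 31.8%. B with 4B had 36.8% lost and 38.4% gained, and without it 34.1 and 37.8%. Added after the data were seen, B exceeded A in the share gained in 7 of 7 groups with at least 500 bp, after merging over 500 bp and when midpoints were used, and exceeded D in 7, 7 and 6 of 7. In these 3 settings, outside 4B, the share lost between 30 and 50% of the length was 36.3, 27.3 and 37.0%, against 43.1, 33.1 and 43.1% elsewhere. The median distance to a kept locus was 14019 bp without 4B and 36460 bp with at least 500 bp for lost loci, and 22309 bp with at least 500 bp for gained loci.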

Other observations

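The other grain lists were read only for whether they held an ACR in the same locus. Of the loci lost between DAP9 and DAP15, 62.6% had an ACR in the DAP5 endosperm list (62.1 to 63.1%) and 26.8% in the DAP20 seed list (26.4 to 27.3%). Of the gained loci, 20.0% had one at DAP5 (19.6 to 20.4%) and 34.2% at DAP20 (33.7 to 34.7%), and 56.3% had one in neither (55.8 to 56.8%). Kept loci had one at DAP5 in 83.6% and at DAP20 in 76.7%. At DAP5 the lost loci thus lay between gained and kept loci, and at DAP20 the gained loci lay between lost and kept loci. Weighted by their numbers of loci, the lost, gained and kept shares put all loci together slightly below the lost loci at DAP5. At DAP20 they put all loci well above the gained loci. The values thus show at most a small excess of lost loci at DAP5 and none of gained loci at DAP20. On 21 of 21 chromosomes, lost loci had an ACR at DAP5 more often than at DAP20, and gained loci the reverse. Kept loci also had one at DAP5 more often than at DAP20 on each chromosome, so that this direction was not particular to lost loci. Lost loci with a DAP5 ACR averaged 637 bp and those without 458 bp. Of the gained loci on 4B between 0 and 240 Mb, 75.7% were in neither list (73.3 to 78.0%). Of the loci lost on 4B between 240 and 300 or 360 and 680 Mb, 49.2% had an ACR at DAP20 (47.0 to 51.4%), against 25.5% of the loci lost on the other chromosomes (25.1 to 26.0%).

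ACRs whose width was not 350 bp plus a multiple of 150 bp were compared with the other ACRs of their list. Over all widths, 24.2% of such DAP9 ACRs were lost (22.4 to 26.2%) against 35.8% of the ACRs on the steps, and 30.2% of such DAP15 ACRs were gained (28.8 to 31.5%) against 35.01% (34.7 to 35.3%). The direction in the DAP15 list turned in a narrower range of widths. Between 351 and 950 bp, 20.2% of such DAP9 ACRs were lost (18.0 to 22.6%) against 35.7% of the ACRs on the steps (35.3 to 36.1%). In the DAP15 list, 46.3% of them were gained (44.4 to 48.3%) against 28.1% (27.7 to 28.5%). Within this range, which was chosen after its values were seen, each difference had the same direction on 21 of 21 chromosomes, and its source was not tested.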
